A study of Caenorhabditis elegans with 12 samples.

Results

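Gonad transcriptomes of nematodes whose ancestors had been given bisphenol A (BPA) were set against those of nematodes whose ancestors had been given water. The comparison takes in the 8 libraries whose titles name F3 BPA or F3 water, 4 of each, out of 12 libraries in the series. BPA is a monomer of polycarbonate plastics and epoxy resins. Caenorhabditis elegans of the P0 generation were exposed for 48 h to 100 µM BPA or to water, and gonads were dissected with needles from adults of the F3 generation descended from them. All animals were kept at 20 °C. The remaining 4 libraries come from descendants of animals exposed to 0.1% DMSO, the solvent control. They enter the fit only to estimate the spread, and a comparison with water does not separate BPA from its solvent. The labels give no strain, and nothing in them says that samples of a group were grown separately, so a p-value here reflects the spread among libraries that may be technical repeats.

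The adult hermaphrodite gonad is a tube of germ cells, with proliferating stem cells at the far end, then meiotic cells, then growing oocytes, all wrapped in a thin layer of somatic sheath. Germ cells silence foreign and damaging sequences through small RNAs bound by Argonaute proteins in germ granules, and through histone methylation laid down by methyltransferases and taken off by jumonji demethylases. Both systems are known to carry states of gene expression between generations in this animal.

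Levels are RPKM, read numbers divided by transcript length and by library size, summed per gene name. Differences are BPA minus water on the log2(RPKM + 1) scale, tested with limma and called at a Benjamini-Hochberg adjusted p under 0.05. A gene was tested if it reached 1 RPKM in at least 4 of the 12 libraries, which 7570 of 40961 gene names did. Depth could only be estimated roughly, at 18.1 to 20.8 M reads (M, 1000000) in the BPA libraries and 13.9 to 25.9 M in the water libraries.

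Water 1 stood apart from the other 11 libraries. It lay at 75.5 on the first principal component, which held 20.8% of the variance, where the others lay between -22.2 and 8.1. Of the 8 libraries, it held the highest value in 35.8% of the tested genes and the lowest in 23.2%. The median SD over tested genes was 0.25 log2 units among BPA libraries and 0.43 among water libraries, and 0.27 among water libraries without water 1. Leaving out water 3 in its place kept the water value at 0.43. Water 3 had the highest summed level of sperm, yolk protein and muscle genes among the 8 libraries, as given below. The comparison was defined beforehand with all water libraries and again without water 1 and 3, and results are given for both.

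**Figure D1:**
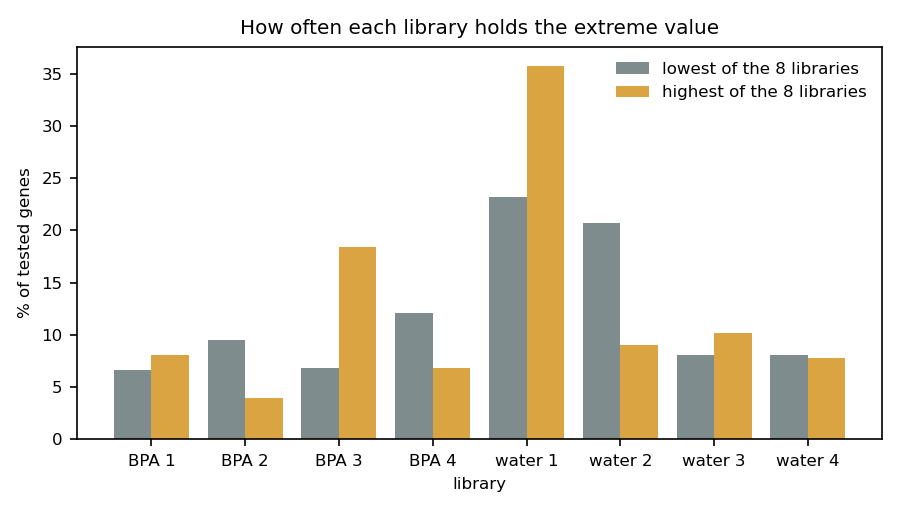
Share of the 7570 tested genes (y axis, %) for which each library (x axis) holds the lowest value (grey bars) or the highest value (yellow bars) of the 8 BPA and water libraries. Water 1 is highest in 35.8% and lowest in 23.2%, and among the BPA libraries BPA 3 is most often highest, in 18.4%.

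With all 4 water libraries, 1 gene fell and none rose in BPA gonads. The called share was 0.0132% for lower and 0% for higher among 7570 tested genes. An unadjusted p under 0.05 was reached by 122 genes that were higher in BPA (1.61%) and 83 that were lower (1.1%), 205 in all (2.71%). The median difference over all tested genes was -0.01, with 48.2% of genes above 0 and 51.8% below. The 95% interval of a difference reached a median of 0.58 log2 units to either side, and 0.46 for the 4262 genes averaging at least 10 RPKM, so most differences smaller than that could not be told from the spread.

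The gene that fell was ZK418.5, a protein-coding gene on chromosome III. It was listed at 0, 0, 1.66 and 1.40 RPKM in BPA 1 to 4, against 33.8, 30, 18.9 and 24.5 RPKM in water 1 to 4. The groups did not overlap. The difference was -4.10 (SE 0.40, adjusted p = 0.00293) with all water libraries and -4.14 (SE 0.51, adjusted p = 0.0225) without water 1 and 3. Since 2 BPA libraries are listed at 0, its size depends on the pseudocount. With all water libraries the call was lost with a pseudocount of 0.1 (adjusted p = 0.0942), with a replicate block (0.114), and in sample numbers 2 and 4 alone (0.0745) or 1 and 3 alone (0.572). The call made without water 1 and 3 was lost without water 2 (0.126), water 4 (0.119), BPA 1 (0.0694) or BPA 2 (0.0667), with a pseudocount of 0.1 (0.362), with BPA and water libraries alone (0.0782) and with a replicate block (0.415). The DMSO libraries, with 41.9, 30, 15.3 and 18.2 RPKM, were also above all BPA libraries.

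ZK418.5 shares a transcript locus with lin-37, a subunit of the DREAM complex that represses germline and cell cycle genes in somatic cells. lin-37 had 45.7, 54.9, 47.3 and 45.2 RPKM in BPA 1 to 4, against 48.3, 28.2, 27.8 and 34.4 RPKM in water 1 to 4. All BPA libraries lay above water 2, 3 and 4, and water 1 lay among them. Its difference was 0.50 (SE 0.17, adjusted p = 0.987) with all water libraries and 0.61 (adjusted p = 0.588) without water 1 and 3. Summed over the locus, the level was 49 ± 4.16 RPKM in BPA gonads and 61.5 ± 14.8 RPKM in water (SD, n = 4 each), a difference of -0.29 (two-sided exact permutation test, p = 0.0857, BH-adjusted p = 0.257 over 9 loci). With 4 against 4 libraries, 0.0286 is the smallest p this test can give. A lower level of ZK418.5 cannot be told apart here from a different division of reads between the gene names of its locus.

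csnk-1, which encodes a casein kinase I of the gamma class, was higher in BPA at a shared locus of its own. It had 16.9, 15.2, 9.66 and 12.3 RPKM in BPA 1 to 4, against 8.23, 1.65, 2.77 and 1.45 RPKM in water 1 to 4. The groups did not overlap, and the DMSO libraries, at 1.33 to 3.96 RPKM, were below every BPA library too. Its difference was 1.88 (SE 0.40, adjusted p = 0.887) with all water libraries, 2.29 (adjusted p = 0.0427) without water 1 alone, and 2.48 (SE 0.32, adjusted p = 0.0286) without water 1 and 3. The last call was lost on leaving out any 1 of water 2, water 4, DMSO 2, DMSO 4, BPA 1, BPA 2 or BPA 4, with adjusted p between 0.054 and 0.199, and with quantile normalisation (0.0656). The locus partner ced-12, needed to engulf dying cells, had 35.7, 30.5, 36.9 and 35.5 RPKM in BPA gonads and 38.5, 41.7, 39.8 and 43.0 RPKM in water. Every BPA library was below every water library, with a difference of -0.23 (adjusted p = 0.987). The locus sum was 48.2 ± 3.04 RPKM in BPA gonads and 44.3 ± 1.82 RPKM in water (SD, n = 4 each, exact permutation p = 0.0857).

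**Figure D2:**
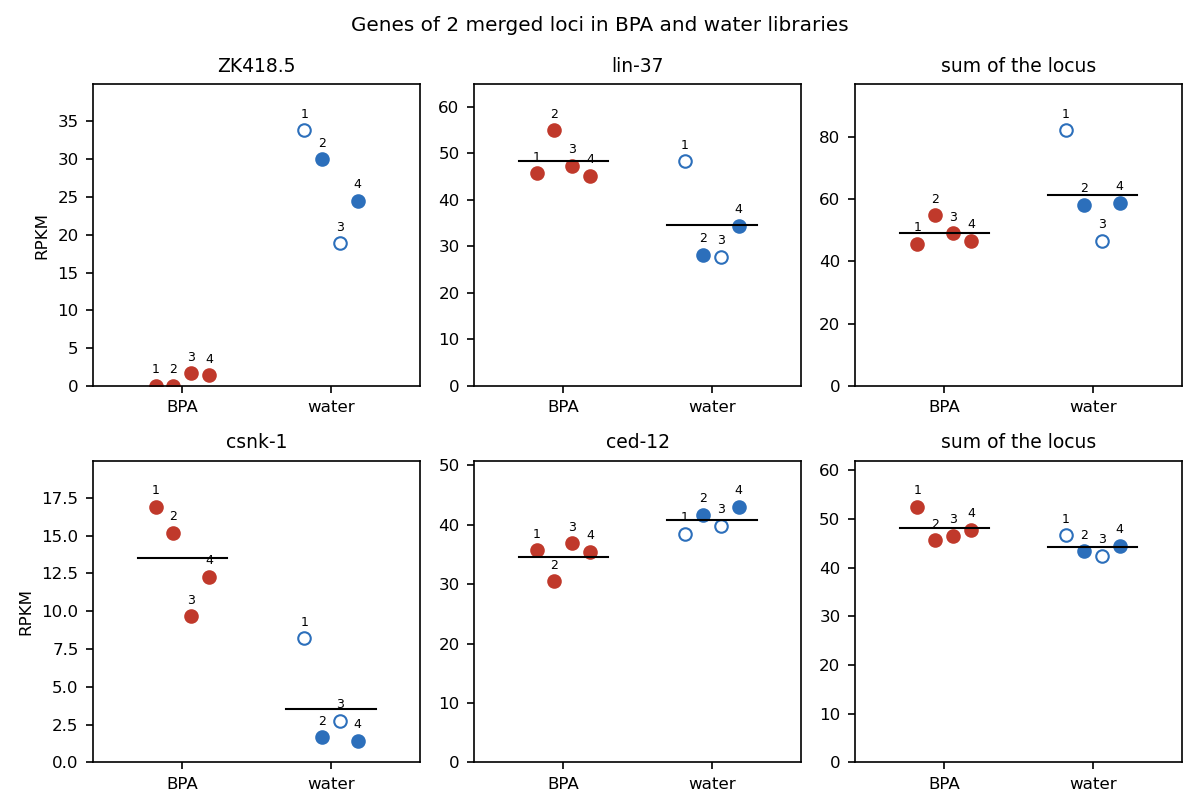
RPKM (y axis) of the genes of 2 loci and of their sum, in BPA (red, left) and water (blue, right) libraries. Each point is a library with its sample number, open points are water 1 and 3, and the line is the mean where no library is listed at 0. ZK418.5 is at most 1.66 in BPA and at least 18.9 in water, while the locus sums overlap.

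Without water 1 and 3, 5 genes rose (0.0661% of those tested) and 2 fell (0.0264%), 7 in all (0.0925%). ZK418.5 was the gene that was also called with all water libraries. An unadjusted p under 0.05 was reached by 172 higher genes (2.27%) and 98 lower ones (1.29%), 270 in all (3.57%). The median difference moved to 0.07, with 62.4% of genes above 0 and 37.6% below. This sets BPA libraries of all numbers against water 2 and 4. In BPA 2 and 4 against water 2 and 4 the median was 0.00, with 3846 of 7570 genes above 0. Of the 7 called genes, 6 lie at loci with several gene names, where the authors' transcript models can divide reads differently between libraries. Over all tested genes, 6268 of 7570 lie alone at their locus.

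The C27F2.9 and vps-22 locus on chromosome III gave a called gene in each direction. C27F2.9 had 360, 358, 528 and 405 RPKM in BPA 1 to 4, against 353, 0, 400 and 0 RPKM in water 1 to 4. Water 2 and water 4 are listed at 0, whereas water 1 and 3 lay close to the BPA libraries. vps-22, a subunit of the ESCRT-II complex that sorts membrane proteins for degradation, had 61.4, 52.2, 59.2 and 55.3 RPKM in BPA 1 to 4, against 65.8, 236, 43.1 and 242 RPKM in water 1 to 4. Here water 2 and water 4 were the high libraries, and BPA lay between water 3 and water 1. Without water 1 and 3 the differences were 8.67 for C27F2.9 (SE 0.19, adjusted p = 1.17e-08) and -2.05 for vps-22 (SE 0.16, adjusted p = 0.000825). With all water libraries they were 4.40 (SE 1.78) and -0.98 (SE 0.47), both with adjusted p = 0.987. The locus sum was 470 ± 81.1 RPKM in BPA gonads and 335 ± 111 RPKM in water (SD, n = 4 each, exact permutation p = 0.143).

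The same alternation was seen at rpb-4, a subunit of RNA polymerase II on chromosome II. It had 13.7, 21.2, 12.8 and 22.1 RPKM in BPA 1 to 4, against 20.0, 0, 19.5 and 0 RPKM in water 1 to 4. Only water 2 and water 4 fell outside the BPA range. Its difference was 4.17 (adjusted p = 0.000216) without water 1 and 3, and 1.98 (adjusted p = 0.987) with them. The locus partner F43E2.1 had 4.33 to 9.06 RPKM in BPA, and 22.9 and 23.5 RPKM in water 2 and water 4 beside 8.62 and 5.59 RPKM in water 1 and 3. The summed locus differed by -0.04 (exact permutation p = 0.8, n = 4 each).

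C18E9.4, listed today as ndub-3 and encoding a subunit of respiratory complex I, had 14.3, 12.6, 8.09 and 10.7 RPKM in BPA 1 to 4, against 25.5, 0, 17.1 and 1.88 RPKM in water 1 to 4. Water 1 and 3 were above all BPA libraries, and water 2 and water 4 below them. The call made without water 1 and 3 (2.85, SE 0.39, adjusted p = 0.035) therefore has the opposite direction to the values left out. It was lost when any 1 of the 10 libraries other than water 4 and BPA 3 was left out, with adjusted p between 0.0715 and 0.156. It was also lost with a pseudocount of 0.1 (0.335), a filter of 10 RPKM (0.0741), quantile normalisation (0.0685), BPA and water libraries alone (0.288) and a replicate block (0.298).

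F55A3.7 on chromosome I, annotated as a pseudogene, was the called gene that lies alone at its locus. It had 34.1, 32.2, 33 and 35.6 RPKM in BPA 1 to 4, against 37.5, 12.2, 29.3 and 9.39 RPKM in water 1 to 4. The BPA libraries were close together, water 1 was just above and water 3 just below them, and water 2 and 4 were far below. Its difference was 1.57 (SE 0.18, adjusted p = 0.0181) without water 1 and 3, and 0.80 (SE 0.36, adjusted p = 0.987) with them. The call was lost without water 4 (adjusted p = 0.119), BPA 1 (0.0694) or BPA 2 (0.0667), with the medians of libraries set equal (0.0795) and with a replicate block (0.188). The DMSO libraries had 28.3 to 45.1 RPKM, so water 2 and 4 were also below all of those.

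**Figure D3:**
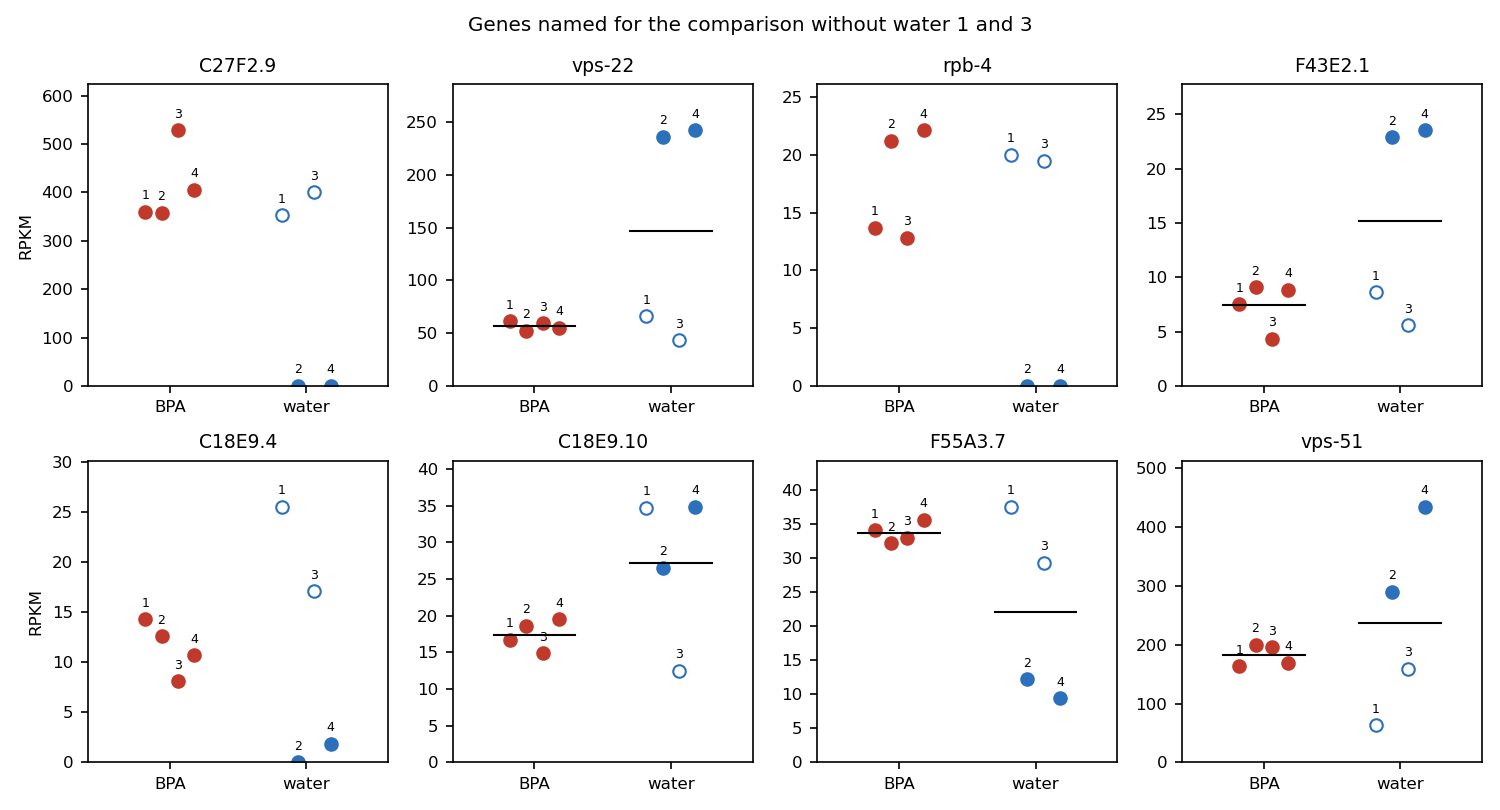
RPKM (y axis) of 8 genes named for the comparison without water 1 and 3, in BPA (red, left) and water (blue, right) libraries, each point a library with its sample number and open points water 1 and 3. At C27F2.9 and rpb-4, water 2 and water 4 are listed at 0 while water 1 and 3 are within or near the BPA values, and the line marks the mean where no library is listed at 0.

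Other genes ranked next by p without passing the adjusted threshold, although some settings called them. Y39B6A.42 on chromosome V had 17.9, 20.5, 14.8 and 16.7 RPKM in BPA 1 to 4, against 0.548, 0.395, 0 and 0.388 RPKM in water 1 to 4. The groups did not overlap, but the difference of 3.80 had an SE of 0.71 and an adjusted p of 0.685, and DMSO 1 was at 16.6 RPKM, among the BPA values. It was called with DMSO 1 left out (adjusted p = 7.12e-05), with BPA and water libraries alone (0.000508) and in sample numbers 2 and 4 alone (0.0322). Each of these settings drops DMSO 1, the only library outside BPA where the gene reached 1 RPKM. These calls are therefore no separate support. Y102A5C.36 had 5.61, 3.53, 3.18 and 14.5 RPKM in BPA gonads and at most 0.0533 RPKM in water (adjusted p = 0.771, and 0.0452 with a pseudocount of 0.1). F14D2.14 had a listed value of 0 in every BPA library and had 13.7, 8.17, 4.12 and 15.4 RPKM in water 1 to 4, while its locus partner F14D2.8 had 5.83 to 9.61 RPKM in BPA gonads and 1.33 to 3.07 RPKM in water. Their locus sum overlapped between the groups (8.06 ± 1.78 RPKM in BPA gonads and 12.7 ± 5.90 RPKM in water, SD, n = 4 each, exact permutation p = 0.229). F14D2.14 was called lower with DMSO 4 left out (adjusted p = 0.00387) and with BPA and water libraries alone (0.0229). Both settings drop DMSO 4, at 10.9 RPKM the only library outside water where it was above 0, so they add no separate support.

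nhl-2, a TRIM-NHL protein that acts as a cofactor of small RNA silencing, had 75.3, 49.4, 55.5 and 50.4 RPKM in BPA 1 to 4, against 39.5, 37.1, 43.3 and 28.7 RPKM in water 1 to 4. All BPA libraries were above all water libraries. The difference was 0.62 (SE 0.18) with all water libraries and 0.78 (SE 0.20) without water 1 and 3, with adjusted p of 0.987 and 0.877. Of the 9 loci summed, its locus with F26F4.6 was the one whose sum did not overlap, at 72.3 ± 2.84 RPKM in BPA gonads and 47.7 ± 7.59 RPKM in water (SD, n = 4 each). The summed difference of 0.60 reached the smallest p the exact permutation test allows, 0.0286, and 0.257 after BH adjustment over 9 loci. Those 9 loci were chosen for genes with a small p in these same libraries. The locus p-values are therefore no separate evidence of a difference. The DMSO libraries had a locus sum of 82.5, 57.3, 59.4 and 47.8 RPKM, reaching from among the water values to above the BPA values.

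Among lower genes, T07E3.3 had 30.1, 28.7, 19.5 and 19.2 RPKM in BPA 1 to 4, against 53.1, 33.5, 32.3 and 38 RPKM in water 1 to 4. The groups did not overlap (-0.66, SE 0.19, adjusted p = 0.987). R05D7.8, annotated as a non-coding RNA, had 0 to 1.91 RPKM in BPA gonads and 1.76 to 11.6 RPKM in water, with water 2 inside the BPA range. The low genes B0035.21, F15E6.4, ttr-1 and spp-15 stayed at or under 1.45 RPKM in BPA gonads and at or under 4.00 RPKM in water. The higher genes F43G6.10 and sre-36, a chemoreceptor gene, had at most 7.66 RPKM in BPA gonads and 3.13 RPKM in water. sre-36 shares its locus with F13A7.14, and the locus sum differed in the opposite direction (-0.26, exact permutation p = 0.514, n = 4 each). A higher level of sre-36 therefore cannot be told apart from a different division of reads at that locus.

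Groups did not overlap in 115 genes that were higher in BPA (1.52% of those tested) and 38 that were lower (0.502%), 153 in all (2.02%). Without water 1 and 3, where only 2 water libraries have to be cleared, the counts were 589 (7.78%) and 308 (4.07%), 897 in all (11.8%). Gene lists for germline processes, stress and other cell types were read against these shares. Counts of members without overlap, or separated, are with all 4 water libraries unless stated. No tested member of any list was called, with all water libraries or without water 1 and 3.

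The germ granule and small RNA list had 5 of 49 tested members higher without overlap and none lower, against the 1.52% and 0.502% over all genes. Its median difference was 0.20, with 38 of 49 above 0, and 0.07 with 32 of 49 above 0 without water 1 and 3. pgl-3, a structural protein of P granules, had 198, 211, 211 and 198 RPKM in BPA 1 to 4, against 172, 107, 107 and 153 RPKM in water 1 to 4. The BPA libraries were close together and above all water libraries, and the difference was 0.63 (SE 0.20, adjusted p = 0.987) and 0.67 without water 1 and 3. DMSO libraries had 102 to 182 RPKM, below all BPA libraries. The other 4 were chosen after their values were seen: the Piwi gene prg-2, whose copy prg-1 is so alike that their reads are uncertain (0.73), the Argonaute sago-2 (0.57), the P granule gene deps-1 (0.43) and the RNase gene mut-7 (0.35), all with adjusted p = 0.987. sago-2 had 54 to 60.7 RPKM in BPA, and water 1 at 21.7 RPKM was far under the other water libraries, at 43.2 to 53.1 RPKM. Without water 1 and 3 its difference was 0.28.

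The groups overlapped for other members of that list. glh-1, the Vasa helicase of P granules, had 853, 868, 613 and 984 RPKM in BPA gonads and 223, 1410, 855 and 855 RPKM in water, with water 1 the lowest and water 2 the highest of the 8. Its difference was 0.24 with all water libraries and -0.43 without water 1 and 3. wago-1, an Argonaute for secondary small RNAs, differed by 0.09 and 0.04. hrde-1, the nuclear Argonaute of heritable RNA interference, had 191, 149, 195 and 136 RPKM in BPA 1 to 4, against 67.9, 141, 159 and 143 RPKM in water 1 to 4. The groups overlapped and water 1 was the lowest library (0.45, SE 0.27, and 0.22 without water 1 and 3).

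The histone demethylases after which the study is titled did not pass the test. jmjd-2, a demethylase of histone H3 lysine 9 and lysine 36, had 46.5, 41.2, 53.9 and 37.5 RPKM in BPA 1 to 4, against 48.1, 34.3, 40.9 and 40.0 RPKM in water 1 to 4. The groups overlapped (0.13, SE 0.15, adjusted p = 0.987), and the difference was 0.25 without water 1 and 3. utx-1, a demethylase of histone H3 lysine 27, had 7.07, 2.63, 7.02 and 2.11 RPKM in BPA gonads and 2.9, 3.98, 5.57 and 2.99 RPKM in water, with BPA 1 and 3 above every water library and BPA 2 and 4 below (0.13, SE 0.41). jmjd-3.1 had 0.896 to 1.73 RPKM in BPA gonads and 1.2 to 1.79 RPKM in water (-0.12). The paralogues jmjd-3.2 and jmjd-3.3 did not reach the filter (at most 0.289 RPKM in any BPA library and 0.293 RPKM in any water library). Of the 11 tested demethylase genes, 6 were above 0 in either comparison, with medians of 0.07 and 0.03, and lsd-1 differed by -0.39 and -0.01.

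Among methyltransferases, met-2, which with set-25 methylates histone H3 lysine 9, had 65.8, 59.6, 61.5 and 41.1 RPKM in BPA 1 to 4, against 30.4, 61.7, 37.2 and 37.5 RPKM in water 1 to 4. BPA 4 and water 2 lay on the far side of their groups (0.47, SE 0.21, and 0.22 without water 1 and 3, adjusted p = 0.987 and 1). set-25 had 48.8 to 53.2 RPKM in BPA gonads and 35 to 49.4 RPKM in water (0.28 and 0.22). mes-2, the catalytic subunit of the Polycomb complex, differed by 0.32 and 0.13. The list of histone methylation and repression genes had 21 of 38 members above 0 with all water libraries and 26 of 38 without water 1 and 3. Its member higher without overlap was dpl-1 (0.19, adjusted p = 0.987, named after its values were seen). That is 2.63% of the list, against 1.52% over all tested genes.

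Oocyte and stem cell genes lay on the BPA-higher side with all water libraries, and water 1 held their lowest means. The oocyte and egg list had 30 of 36 tested members above 0 and a median of 0.26. Its mean level was 7.59, 7.58, 7.64 and 7.28 log2 units in BPA 1 to 4, against 6.83, 7.40, 7.51 and 7.37 in water 1 to 4. Water 1 was the lowest library, and the remaining 7 overlapped between the groups. Without water 1 the median was 0.10, without water 1 and 3 it was 0.14, and in BPA 2 and 4 against water 2 and 4 it was 0.01. None of the 36 members was separated between the groups with all water libraries. Without water 1 and 3, 1 was higher (2.78%, against 7.78% over all tested genes). cgh-1, a DEAD-box helicase that protects stored maternal mRNA, had 597, 546, 445 and 529 RPKM in BPA gonads and 90.5, 630, 522 and 363 RPKM in water (0.70, SE 0.47, and 0.14 without water 1 and 3). The eggshell gene cpg-3 had 2840 to 3530 RPKM in BPA gonads and 1480 to 3320 RPKM in water, with water 1 the lowest (0.27 and -0.03).

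The stem cell and translational control list had 24 of 26 tested members above 0, with medians of 0.27 with all water libraries and 0.17 without water 1 and 3. The member higher without overlap was puf-8 at a shared locus (3.85% of the list, against 1.52% over all tested genes). This repressor of translation in germline stem cells had 113 to 127 RPKM in BPA gonads and 76.4 to 108 RPKM in water. Its difference was 0.29 (adjusted p = 0.987), and it was named after its values were seen. daz-1, which promotes oogenesis, differed by 0.38 (SE 0.18), and rnp-8, a partner of the poly(A) polymerase GLD-2, by 0.49 (SE 0.21). Both had their lowest value in water 1 and overlapped between the groups.

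Meiosis genes had 5 of 46 tested members higher without overlap (10.9%, against 1.52% over all tested genes) and none lower. Their median was 0.00, with 23 of 46 above 0. xnd-1, which shapes where crossovers form, had 106, 94.5, 98.0 and 101 RPKM in BPA 1 to 4, against 71.7, 84.6, 84.7 and 81.8 RPKM in water 1 to 4. The BPA libraries were all higher (0.30, SE 0.10, and 0.26 without water 1 and 3, adjusted p = 0.987 and 1). The other 4, named after their values were seen, were plk-2 (0.34), sun-1 (0.22), rad-54 (0.15) and him-6 (0.13), and all 4 had adjusted p = 0.987. Their separations were narrow: rad-54 had 29.6 to 30.3 RPKM in BPA gonads and 25.2 to 29.4 RPKM in water. The abundant lab-1 and syp-4, proteins of paired meiotic chromosomes, differed by -0.17 and 0.17 and overlapped.

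Cell cycle genes had 50 of 67 tested members above 0 and a median of 0.11, which was 0.05 without water 1 and 3. cya-1, an A-type cyclin, was the list's separated member (1.49% of those tested, against 1.52% over all tested genes). It had 25.7, 20.5, 25.9 and 21 RPKM in BPA 1 to 4, against 13.3, 18.9, 16.2 and 17.2 RPKM in water 1 to 4 (0.48, SE 0.15, adjusted p = 0.987). The B-type cyclin cyb-3 differed by 0.11 and overlapped. Apoptosis and DNA damage genes had 1 of 30 members separated in each direction (3.33% each, against 1.52% higher and 0.502% lower over all tested genes). They were ced-12 lower and the p53 homologue cep-1 higher (0.23, named after its values were seen). Condensin and dosage compensation genes had none of 14, and 1 higher without water 1 and 3 (7.14%, against 7.78% over all tested genes).

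**Figure D4:**
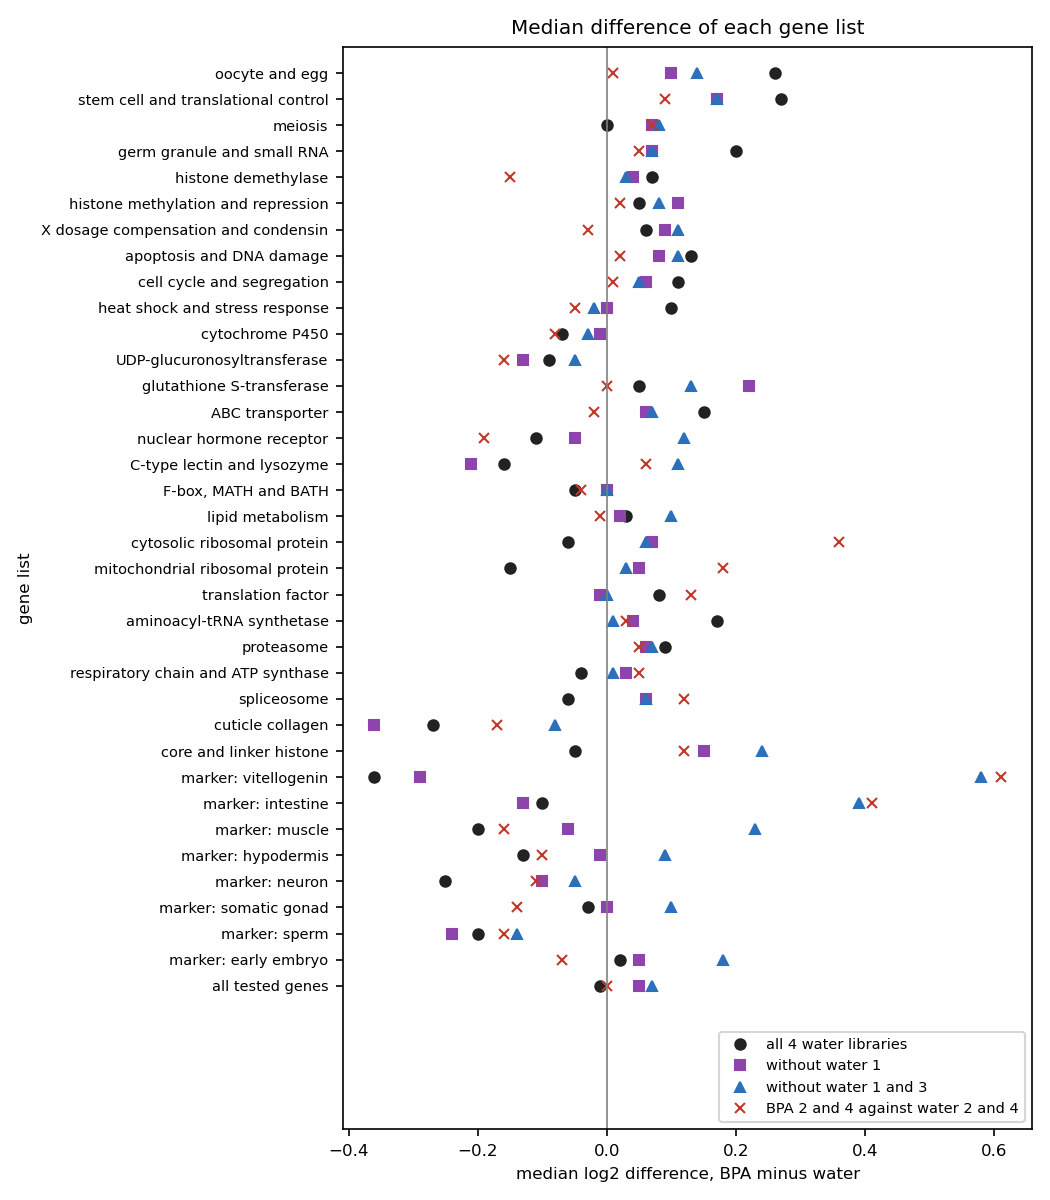
Median log2 difference, BPA minus water (x axis), of the tested members of each gene list (y axis), with all 4 water libraries (black circles), without water 1 (purple squares), without water 1 and 3 (blue triangles) and for BPA 2 and 4 against water 2 and 4 (red crosses). The oocyte list lies at 0.26, 0.10, 0.14 and 0.01, and the vitellogenin list at -0.36, -0.29, 0.58 and 0.61.

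Detoxification genes, the first line of response to a compound such as BPA in exposed animals, were mostly below the filter in these F3 gonads. Of 76 cytochrome P450 genes in the files 11 were tested, of 65 UDP-glucuronosyltransferases 7, and of 48 glutathione S-transferases 12. Their medians were -0.07, -0.09 and 0.05 with all water libraries, and -0.03, -0.05 and 0.13 without water 1 and 3. None was separated between the groups with all water libraries. Without water 1 and 3, 1 glutathione S-transferase was higher and 1 lower without overlap (8.33% each, against 7.78% and 4.07% over all tested genes). gst-30 had 2.26, 1.41, 1.04 and 2.14 RPKM in BPA gonads and 1.39, 0, 0 and 0.0949 RPKM in water (1.07, SE 0.44). Heat shock and stress genes had a median of 0.10, and -0.02 without water 1 and 3. hsp-70 had 1.97, 7.96, 6.98 and 6.52 RPKM in BPA gonads and 7.47, 14.6, 7.74 and 46.6 RPKM in water (-1.28, SE 0.52, adjusted p = 0.987), whereas the DMSO libraries had 2.22 to 3.65 RPKM. The constitutive chaperone hsp-1 had 1480 to 4920 RPKM in BPA gonads and 1550 to 5960 RPKM in water (-0.02).

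Nuclear hormone receptors, the class of the estrogen receptors that BPA binds in vertebrates, had 65 of 279 members tested. Their median was -0.11, with 18 of 65 above 0, and 0.12 with 41 of 65 above 0 without water 1 and 3. In BPA 2 and 4 against water 2 and 4 it was -0.19. nhr-49, a regulator of fat use, was the separated member (1.54% of those tested, against 1.52% over all tested genes). It had 44.8, 35.1, 42.9 and 45.8 RPKM in BPA 1 to 4, against 21, 33.7, 34.4 and 30.5 RPKM in water 1 to 4 (0.50, SE 0.19, adjusted p = 0.987, and 0.38 without water 1 and 3). Lipid genes had 3 of 37 members higher without overlap (8.11%, against 1.52% over all tested genes). Without water 1 and 3 the share was 10.8%, against 7.78%. let-767, a steroid dehydrogenase family enzyme, had 32.1 to 37.3 RPKM in BPA gonads and 27 to 29.5 RPKM in water (0.29, SE 0.12), and the other 2, named after their values were seen, were the omega-3 desaturase fat-1 (0.42) and the carnitine palmitoyltransferase cpt-2 (0.21).

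The difference in ribosomal protein genes changed sign with the sample numbers compared. The 67 tested genes of the cytosolic ribosome had a median of -0.06 with all water libraries and 0.06 without water 1 and 3, but 0.36 in BPA 2 and 4 against water 2 and 4 and -0.55 in BPA 1 and 3 against water 1 and 3. Their mean level was 7.45, 7.75, 6.99 and 7.82 log2 units in BPA 1 to 4, against 7.73, 7.32, 7.30 and 7.47 in water 1 to 4. BPA 3 was lowest and BPA 4 highest. The labels do not say what the numbers stand for. Mitochondrial ribosomal proteins had a median of -0.15 and 17 of 56 above 0, and 0.03 without water 1 and 3. Of these, mrps-17 was lower without overlap (1.79% of the list, against 0.502% over all tested genes). It had 3.24 to 4.17 RPKM in BPA gonads and 4.76 to 10.4 RPKM in water (-0.74, SE 0.27, adjusted p = 0.987). Proteasome and spliceosome genes had 2 of 30 and 2 of 36 members higher without overlap (6.67% and 5.56%, against 1.52% over all tested genes). They included rpn-6.1, a lid subunit of the proteasome, at 80.2 to 82.5 RPKM in BPA gonads and 70.7 to 75.6 RPKM in water (0.16), and prp-21, a splicing factor, at 38.5 to 42.8 RPKM in BPA gonads and 21.8 to 37.1 RPKM in water (0.38).

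In most lists of this paragraph no member was separated with all water libraries. The exceptions were ucr-1 in the respiratory chain (0.26, named after its values were seen) and bath-28 in the F-box, MATH and BATH list. They are 3.12% and 1.04% of the tested members, against 1.52% over all tested genes. Without water 1 and 3, no ABC transporter was separated, and 7.78% of all tested genes were higher and 4.07% lower without overlap. The shares higher and lower were 7.69% and 7.69% for translation factors and 3.45% and 6.9% for aminoacyl-tRNA synthetases. They were 9.38% and 6.25% for the respiratory chain and 4.17% and 3.12% for the F-box, MATH and BATH list. Cuticle collagens had 2.94% and 5.88%, and C-type lectins and lysozymes 7.69% and 0%. ABC transporters had a median of 0.15 (20 of 23 above 0), translation factors of 0.08 (15 of 26) and aminoacyl-tRNA synthetases of 0.17 (21 of 29), and these were 0.07, 0.00 and 0.01 without water 1 and 3. For the respiratory chain the median was -0.04 (14 of 32 above 0), and for the F-box, MATH and BATH list -0.05 (41 of 96). Cuticle collagens, the proteins of the worm's outer coat, had a median of -0.27 (9 of 34 above 0), and -0.08 without water 1 and 3. C-type lectins and lysozymes had a median of -0.16 (9 of 26 above 0), and 0.11 (19 of 26) without water 1 and 3. Their most abundant member, clec-87, had 9110 to 13400 RPKM in BPA gonads and 6360 to 11800 RPKM in water (0.22, SE 0.44).

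Core and linker histones had 16 of 70 genes tested and 2 higher without overlap (12.5%, against 1.52% over all tested genes). These were his-29 and his-34 (1.16 and 1.17, adjusted p = 0.987, named after their values were seen). They had 1.39 to 2.12 RPKM in BPA gonads and 1.35 RPKM in water 2, and were listed at 0 in water 1, 3 and 4. Both genes had nearly the same value in each library, so they may not be separate measurements. Among the BPA and water libraries, only the BPA libraries and water 2 reached the filter level of 1 RPKM. The share of 12.5% is therefore no support for a difference in histone genes. his-35 had 1.38, 2.45, 4.56 and 3.60 RPKM in BPA 1 to 4, against 1.42, 0, 0.356 and 0 RPKM in water 1 to 4, so BPA 1 and water 1 crossed (1.5, SE 0.34, adjusted p = 0.987, and 1.93 without water 1 and 3, adjusted p = 0.27). Copies of a histone are nearly identical, so the division of reads among them is uncertain. bath-28, a MATH and BTB domain gene at a shared locus, had 7.85 to 12.2 RPKM in BPA gonads and 0.013, 7.35, 0.0492 and 0.00563 RPKM in water 1 to 4 (2.58, SE 0.77, adjusted p = 0.987).

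Markers of tissues that a needle dissection can carry along differed from library to library in both groups. In these bulk samples, fewer cells of a type and less RNA per cell cannot be told apart. The 5 vitellogenin genes in the files, whose yolk proteins are made in the intestine, summed to 18.9, 80.8, 109 and 31.7 RPKM in BPA 1 to 4, against 71.9, 26.5, 248 and 34.5 RPKM in water 1 to 4. Water 3 was highest, followed by BPA 3, and the groups overlapped. DMSO 3 was higher still, at 917 RPKM, beside 17.4 to 61.9 RPKM in the other DMSO libraries. The median difference was -0.36 with none of 5 above 0, but 0.58 with all 5 above 0 once water 1 and 3 were left out. The 27 muscle genes summed to 271, 176, 601 and 175 RPKM in BPA 1 to 4, against 369, 219, 687 and 166 RPKM in water 1 to 4. The sum was highest in number 3 of each group. It was lowest in water 4 among the water libraries, and nearly equal in BPA 2 and BPA 4. pat-10, a muscle troponin C, is part of the sum and made up much of it in number 3. It had 256 RPKM in BPA 3 and 325 RPKM in water 3, against 16.7 RPKM in BPA 4 and 24.3 RPKM in water 4. The muscle median was -0.20 (4 of 19 above 0), 0.23 (16 of 19) without water 1 and 3, and -0.16 (6 of 19) in BPA 2 and 4 against water 2 and 4.

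Sperm markers set water 3 apart. The 35 sperm genes in the files summed to 77.3 to 101 RPKM in BPA gonads and to 98.4, 84.0, 284 and 96.3 RPKM in water 1 to 4. gsp-3, a sperm protein phosphatase, had at most 0.227 RPKM in BPA, against 0, 1.1, 55.7 and 1.52 RPKM in water 1 to 4. The 30 major sperm protein genes, all below the filter, summed to 1.57 to 6.73 RPKM in BPA gonads and to 6.60, 0, 259 and 5.33 RPKM in water 1 to 4. In water 3 the sum came from msp-19 (230 RPKM) and msp-74 (28.8 RPKM), and the other 28 were listed at 0. Genes of this family are nearly identical, so the division of reads among them is uncertain. Somatic gonad genes, which belong to the dissected tissue, summed to 532 to 703 RPKM in BPA gonads. The sum was 353 RPKM in water 1 and 578 to 642 RPKM in the other water libraries. The low sum in water 1 came mainly from fln-1, at 126 RPKM there and 327 to 430 RPKM in the other water libraries. The mean level of the tested somatic gonad genes was 3.48 log2 units in water 1, within the 3.45 to 3.88 of the other water libraries. The median of intestine genes was -0.10 (4 of 10 above 0), and 0.39 (9 of 10) without water 1 and 3. Neuron, hypodermis and early embryo markers had 4, 6 and 4 tested genes, with medians of -0.25, -0.13 and 0.02. The part of these transcripts in the differences described here was not tested.

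**Figure D5:**
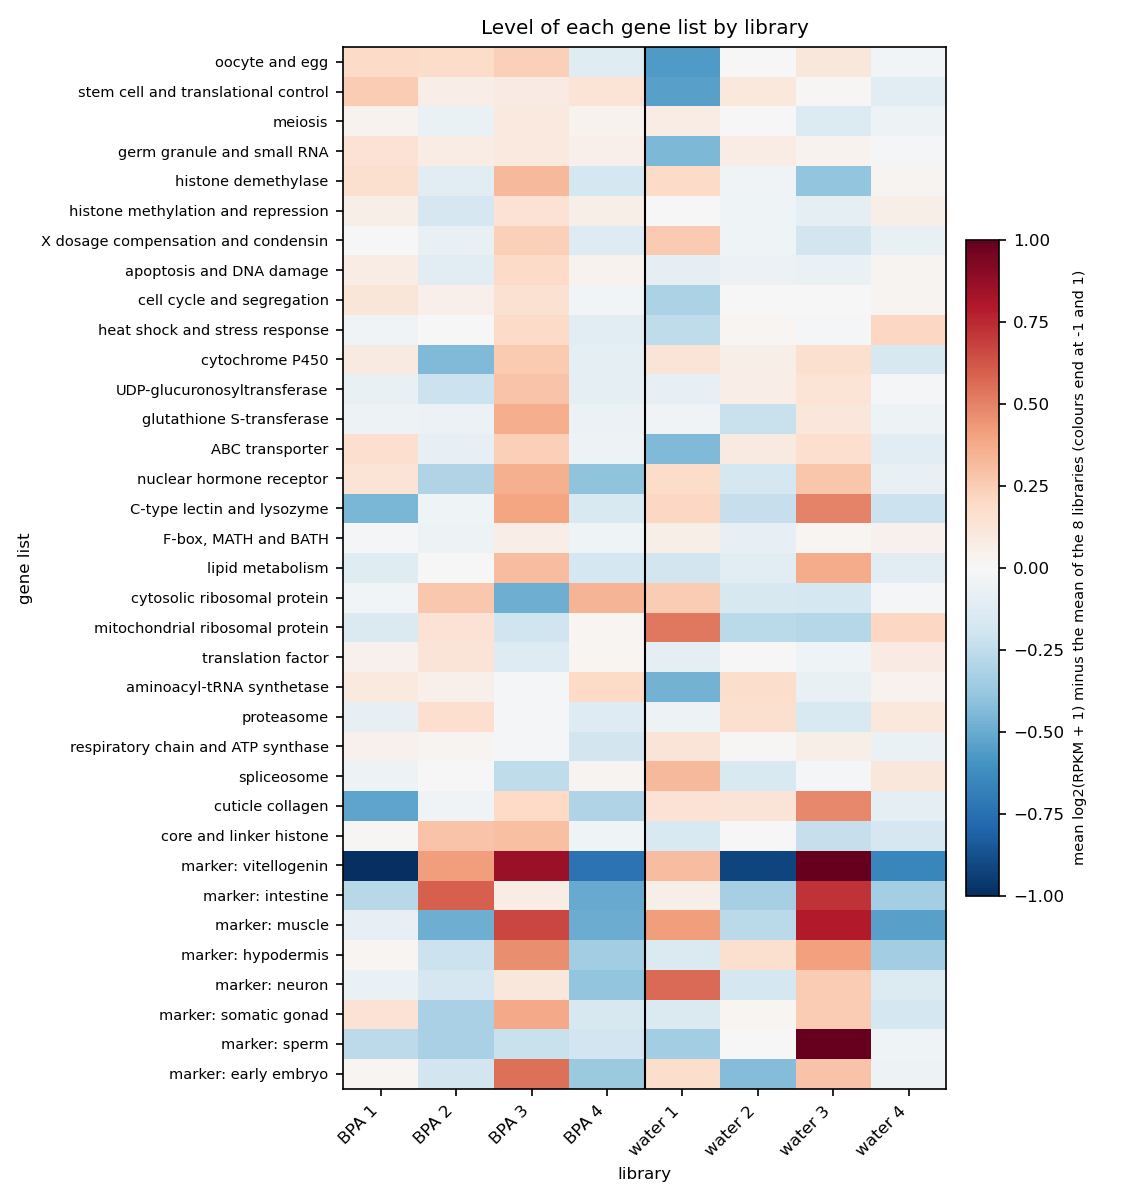
Mean log2(RPKM + 1) of the tested members of each gene list (rows) in each library (columns, BPA left of the line and water right of it), minus the mean of the 8 libraries, with red for higher and blue for lower. Water 1 is low in the oocyte, stem cell and germ granule lists, and BPA 3 and water 3 are high in the vitellogenin and muscle lists.

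The X chromosome, which is silenced through much of germ cell development, differed in median from the autosomes once water 1 and 3 were left out. With all water libraries the median difference of its 830 tested genes was -0.03, with 44.2% above 0, and the autosomes had medians of -0.02 to 0.00. Without water 1 and 3 the X median was 0.21, with 77.5% above 0, and the autosomal medians were 0.05 to 0.08. The mean level of X genes was 2.47, 2.1, 2.78 and 1.98 log2 units in BPA 1 to 4, against 2.58, 2.09, 2.63 and 2.19 in water 1 to 4. Numbers 1 and 3 were higher than numbers 2 and 4 in both groups, so leaving out water 1 and 3 sets BPA libraries of all numbers against water 2 and 4. In BPA 2 and 4 against water 2 and 4 the X median was -0.15, and in BPA 1 and 3 against water 1 and 3 it was 0.04. Groups did not overlap in 1 X gene that was higher (0.12%) and 3 that were lower (0.361%), against 1.52% and 0.502% over all tested genes.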

How the data were processed

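The authors deposited 1 table of transcript values per library. Its unit, per the file headers, was RPKM in 11 tables and FPKM in that of BPA 1, which for single-end reads measures the same. HISAT and StringTie with the genome build ce10 are named in the submitters' processing notes. Tool versions, annotation and strand handling were not given in the sources used here, so antisense genes are uncertain. Each table lists 49201 transcripts at 37450 loci, of which 3605 hold several gene names.

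Values were summed per gene name, leaving out 279 transcripts without a name, and log2(RPKM + 1) was tested with limma 3.58.1 (R 4.3.3, variance trend, two-sided, Benjamini-Hochberg over 7570 genes) in 1 fit of all 12 libraries, repeated without water 1 and 3. The fit was tested on simulated data. Locus sums were compared by exact permutation. The 9 loci hold several gene names, with at least 1 called or among the 8 smallest p described below. Depth was estimated from the smallest steps between values and is rough, since under 30.4% of low values came out whole within 0.1, too few for a count test. Some listed zeros can be failed estimates: 93 tested genes are at 0 in at least 1 of the 8 libraries and at 50 RPKM or more in another, 69 of them at shared loci. Of all 7570 tested genes, 6268 are alone at their locus. Chromosomes were matched by name to Ensembl release 115. Groups and sample numbers come from the titles.

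The members and the 36 gene lists were chosen with earlier results of these data known. Named genes are those called, the 8 with the smallest p in each direction and comparison, 9 histone and small RNA genes, the 2 highest and the smallest-p member of each list, and locus partners of called genes. Only some of the list members so chosen are described. Alternatives changed the pseudocount, filter, scaling, libraries and gene models.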

Additional observations from a re-analysis of the deposited data

Results flagged for a closer look

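Within each group of 4 libraries, the gap between an extreme library and its nearest neighbour was set against the whole range on the log2(RPKM + 1) scale, with the 95% critical value of Dixon's test as the limit. Chance passes about 1 in 20 groups, and 20 of 232 passed. Of these, 8 were in water 1. Water 1 stood out with hrde-1 at 67.9 RPKM, dpy-28, a condensin subunit, at 12.5 RPKM, rpl-12 at 2660 RPKM and eef-1G, a translation elongation factor, at 4080 RPKM. rpl-12 lies at a shared locus and was lower still in DMSO 1, at 1620 RPKM. Water 1 was the high library for gst-30, at 1.39 RPKM, and was listed at 0 for jmjd-3.2. Its means were low for the germ granule list, at 5.34, and the cell cycle list, at 5.67 log2 units.

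Water 2 stood out with F43G6.10 at 1.26 RPKM, F15E6.4 at 0.488 RPKM and bath-28 at 7.35 RPKM. Water 3 stood out with Y102A5C.36 at 0.0533 RPKM and with the mean of the lipid list, at 4.31 log2 units. Among BPA libraries, BPA 3 stood out with mes-2 at 48.7 RPKM, cpg-3 at 3530 RPKM and the glutathione S-transferase mean of 2.53 log2 units. BPA 4 stood out with F15E6.4 at 0.635 RPKM and the oocyte mean of 7.28 log2 units. BPA 1 stood out with hsp-70 at 1.97 RPKM and with rpl-19, at a shared locus, at 64.6 RPKM, where the other BPA libraries are listed at 0.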

How the results depend on the processing

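vps-22, called lower without water 1 and 3, differed by 0.17 in numbers 1 and 3 alone. The other called genes kept their direction in the alternatives compared for them, although C27F2.9 differed by only 0.21 in numbers 1 and 3 alone. That setting was compared for ZK418.5, C27F2.9 and csnk-1 but not for C18E9.4, rpb-4 and F55A3.7. The listed values reverse there for rpb-4, with 13.7 and 12.8 RPKM in BPA 1 and 3 against 20.0 and 19.5 RPKM in water 1 and 3. They also reverse for C18E9.4, with 14.3 and 8.09 RPKM against 25.5 and 17.1 RPKM. With all water libraries, the call counts (0 higher and 1 lower) became 1 higher and 0 lower with a pseudocount of 0.1, 1 higher and 2 lower with BPA and water libraries alone, and 1 higher with array weights. They were 0 lower for values summed per locus and for genes alone at their locus, 5 higher and 2 lower without water 1 and 3, 11 higher and 5 lower in numbers 2 and 4 alone, and 2 in each direction in numbers 1 and 3 alone. Leaving out 1 library gave 0 to 1 higher and 1 to 2 lower. The adjusted p of ZK418.5 ranged from 0.00163 to 0.572 over its alternatives.

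Without water 1 and 3 (5 higher and 2 lower), there was 1 lower with a pseudocount of 0.1, 51 lower with no filter, 3 higher with a filter of 10 RPKM or with quantile normalisation, and 1 higher and 0 lower for locus sums or genes alone at their locus. Leaving out 1 library gave 2 to 11 higher and 1 to 3 lower.

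Equal sample numbers were not treated as pairs, since not every correlation of same-numbered deviations was over 0.1 (-0.07, 0.01, 0.15 and 0.10). On the second principal component (17.5% of the variance), however, numbers 1 and 3 lay above numbers 2 and 4 in each of the 3 groups, at -1.0 to 38.6 and -29.4 to -12.6. With a replicate block, 0 genes were lower with all water libraries, and 4 were higher and 1 lower without water 1 and 3.

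Limits are the lack of counts, the estimated depth, the shared loci and the 4 libraries a group, of which 2 remain for water in the second comparison. The causes of the changes between settings were not tested.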
